A study of Mus musculus with 768 samples.

Results

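Matricellular proteins are secreted into the extracellular matrix, where they act on cells more than they build structure. They bind collagens, integrins, growth factors and proteases, and most are known for strong regulation in development and after injury. In peripheral nerve, Schwann cells (SCs), the glia that wrap axons, are among their sources. The genes described here are Sparc and Sparcl1 of the SPARC family, the thrombospondin genes Thbs1, Thbs2 and Thbs4, the periostin gene Postn, the tenascin gene Tnc, and Serpine2, which encodes the secreted serpin protease nexin-1. They were chosen by name, with earlier results of these data known, and found through their Ensembl identifiers. These 8 were all present among the 25700 genes of the count table.

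The cells were eYFP-positive SCs sorted from sciatic nerves of C57BL/6J mice at postnatal day 60 (P60), which carried a Cre transgene active in the Schwann cell lineage with the ReYFP reporter and βAct-DsRed. There was no other genotype or treatment, and every comparison is between kinds of cells within the same nerves. Cells were sorted singly into 2 plates of 384 wells, each plate a biological replicate from pooled nerves of male and female mice, so the plate was the replicate (n = 2) and the cells of a plate were not. Nerves were dissociated with enzymes at 37°C, and the reporter marks any cell with a history of Cre activity. Full-length Smart-Seq2 libraries without molecular identifiers gave 283685199 counted reads.

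Of the 768 cells, 340 in plate 1 and 334 in plate 2 had 1500 or more detected genes and were kept. Plate 2 had more reads per kept cell (median 452484 against 158689) but fewer genes (median 2295 against 3442). Clusters were rebuilt without the 8 genes and named from marker genes. Of these cells, 152 in plate 1 and 79 in plate 2 fell into clusters with myelinating SC markers (mSC-like), and 188 and 255 into clusters with markers of non-myelinating, Remak SCs (nm(R)SC-like). The mSC-like cells were divided at 50 CPM (a gene's reads scaled to a fixed library total) of Mfap5, which gave 83 and 19 Mfap5-high cells and 69 and 60 Mfap5-low cells. The nm(R)SC-like cells were called mature when 3 or more of 9 Remak markers reached 50 CPM. Mature cells were divided at 50 CPM of Aldh1a1 into 110 and 94 Aldh1a1-high and 43 and 55 Aldh1a1-low cells, and the remaining 35 and 106 cells did not reach 3 markers and are called lacking mature Remak genes. That name stands for the gate, since these cells had a median of 2 markers at 50 CPM and still held Scn7a at 723.3 and 1158 CPM and Aldh1a1 at 89.9 and 789.6 CPM. Lacking cells of plate 1 also held the myelinating marker Prx at 927.9 CPM, against 47.4 CPM in those of plate 2. In mature cells of plate 1, Prx was 66.5 CPM (Aldh1a1-high) and 73.7 CPM (Aldh1a1-low). These gates mark ranges of a level and not cell types. Few cells lay between 25 and 100 CPM of the gate gene (12 and 0 for Aldh1a1, 10 and 0 for Mfap5), but 21 and 67 nm(R)SC-like cells had 2 Remak markers and 47 and 76 had 3.

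The sort was checked against genes of other cells in the nerve. Pdgfra, Dpt, Clec3b and Cd34 of the fibroblast list, Msln and Lypd2 of the perineurial list, Cdh5, Emcn and Tie1 of the endothelial list and Ptprc of the immune list were under 1 CPM in both classes and all subsets. The summed fibroblast list (9 genes) ranged from 716.7 to 3227 CPM over subsets and plates, and most of it was Col1a2. Aif1 and Cx3cr1 of the immune list were also under 1 CPM throughout. Other genes of these lists were above 1 CPM in at least 1 subset and plate. Col1a1 ranged from 80 to 943.1 CPM over subsets and plates and was highest in Aldh1a1-low cells of plate 1. Dcn reached 63.3 CPM and Itgb4 359.2 CPM in Aldh1a1-high cells of plate 1. Cldn1 reached 31.4 CPM and Cldn5 18.8 CPM in lacking cells of plate 1. Lum reached 15.1 CPM in Mfap5-low cells of plate 1, and Slc2a1 79.4 CPM in those of plate 2. The endothelial gene Kdr was 53.6 and 45.4 CPM in Mfap5-high cells, and the summed immune list ranged from 2.74 to 28.4 CPM. The pericyte list (7 genes) summed to between 71 and 237 CPM, led by Cspg4 or Pdgfrb or, in Mfap5-high cells, by Tagln (88.8 and 86.8 CPM), while Myh11, Rgs5 and Des were under 1 CPM.

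All 8 are protein-coding genes whose exons overlap no exon of another gene of the count table (annotation GENCODE M21, GRCm38). For the genes that passed a test below and have a RefSeq promoter window, the 250 bases before the RefSeq start are shown (for Postn, which has more than 1, the window nearest to the gene's annotated start), so that the regions upstream of genes low and high in the same cells can be read side by side. Capitals mark TATAAA (the TATA box) or ACAAAG (a SOX family motif) on either strand. The build is GRCm38.p6, and each window is written 5′ to 3′ on the strand of the gene.
Thbs2, chr17:14694263-14694512, minus strand: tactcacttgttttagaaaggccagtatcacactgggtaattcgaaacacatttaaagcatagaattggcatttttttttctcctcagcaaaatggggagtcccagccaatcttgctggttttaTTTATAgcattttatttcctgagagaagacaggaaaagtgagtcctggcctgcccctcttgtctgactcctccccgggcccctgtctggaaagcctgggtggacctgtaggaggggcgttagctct
Postn, chr3:54360857-54361106, plus strand: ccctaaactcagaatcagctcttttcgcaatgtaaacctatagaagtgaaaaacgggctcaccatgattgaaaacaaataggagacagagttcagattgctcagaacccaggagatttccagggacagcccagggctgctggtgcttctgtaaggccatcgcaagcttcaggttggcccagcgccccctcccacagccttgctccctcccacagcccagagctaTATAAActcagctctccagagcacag
Serpine2, chr1:79858666-79858915, minus strand: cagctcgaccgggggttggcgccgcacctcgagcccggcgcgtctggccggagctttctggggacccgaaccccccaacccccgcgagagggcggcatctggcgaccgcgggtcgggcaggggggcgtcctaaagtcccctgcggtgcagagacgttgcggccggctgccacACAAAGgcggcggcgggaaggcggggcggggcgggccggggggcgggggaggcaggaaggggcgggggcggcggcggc

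The Postn window had its TATAAA from 26 to 21 bases before the start, and the Thbs2 window had a match on the other strand from 126 to 121 bases before. The Serpine2 window had no TATAAA, 1 ACAAAG and a GC content of 78.8%, against a median of 52.4% over all 32851 windows and 46.8% and 52% for Thbs2 and Postn. TATAAA was found in 12.4% of all windows, ACAAAG in 16.5%, and the AP-1 motif TGANTCA, which none of the 3 windows held, in 6.75%. A match in these letters is a description of the window and not a bound site.

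Per length of exon, Sparc was the most abundant of the 8 genes in both classes and all 5 subsets, in both plates. In mSC-like cells it was 2793 and 1922 CPM per kb, followed by Serpine2 (86.5 and 134) and Sparcl1 (33.1 and 16.6). The nm(R)SC-like class had 4152 and 2983 CPM per kb of Sparc, followed by Sparcl1 (468 and 677) and Serpine2 (43.7 and 42.6). Thbs2, Postn and Tnc followed in that order in both classes and both plates. Thbs1 and Thbs4 were at the limit of detection throughout.

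**Figure D1:**
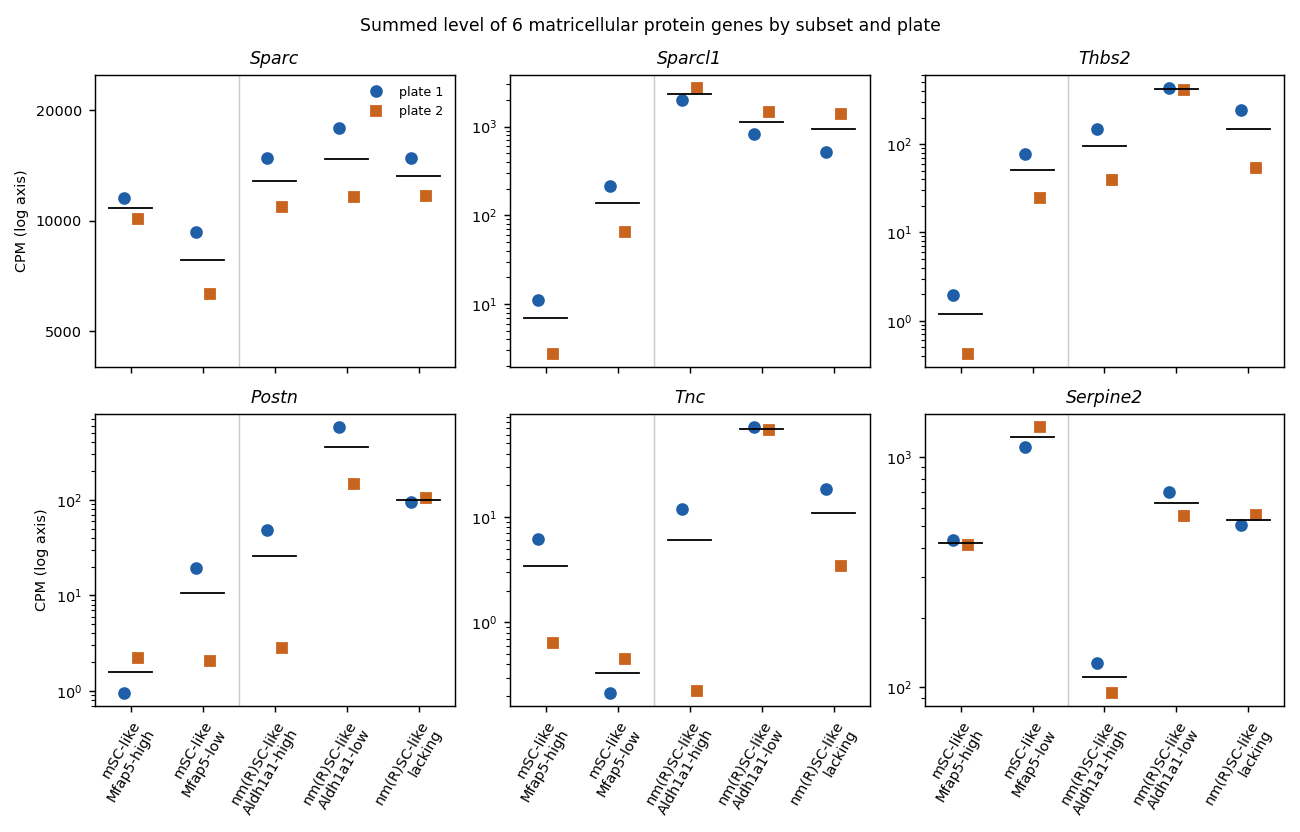
Summed level of the 6 detected genes in CPM (log axis) in 5 subsets of cells (horizontal axis), with a circle for plate 1, a square for plate 2 and a bar for their mean. Sparcl1 was between 521.1 and 2729 CPM in the nm(R)SC-like subsets and at most 213.8 CPM in the mSC-like subsets, while Serpine2 was highest in the Mfap5-low mSC-like subset of each plate.

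Sparc (ENSMUSG00000018593, chr11:55394500-55423183, minus strand) encodes a collagen-binding glycoprotein also known as osteonectin. It had a read in all 768 cells, took 1.11% of all reads and ranked 4th of all genes. Its summed level was 10581 CPM in plate 1 and 7279 CPM in plate 2 in mSC-like cells, and 15730 and 11300 CPM in the nm(R)SC-like class. Each plate was lower in mSC-like cells, but plate 1 mSC-like and plate 2 nm(R)SC-like values lay close together. The log2 ratio of mSC-like to nm(R)SC-like cells was -0.54 ± 0.59 (SE), with an adjusted p of 0.851 in edgeR's quasi-likelihood test, and no difference was detected. Without integration of the plates its sign was opposite (0.27).

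Sparcl1 (ENSMUSG00000029309, chr5:104079111-104113733, minus strand) encodes hevin, a SPARC relative known from astrocytes as a promoter of synapse formation. It was 97.2 and 48.7 CPM in mSC-like cells of plates 1 and 2, and 1375 and 1989 CPM in the nm(R)SC-like class. Sparcl1 fell by 4.52 ± 0.61 (SE, log2) in mSC-like cells (edgeR adjusted p = 0.00267). In nm(R)SC-like cells thinned to 100000 reads, 81.9% of 116 cells in plate 1 (95% exact interval 73.7 to 88.4) and 86.1% of 238 in plate 2 (81.1 to 90.3) had 5 or more reads of Sparcl1. In mSC-like cells these shares were 14% of 107 (8.06 to 22.1) and 4% of 75 (0.833 to 11.2). The mSC-like signal was uneven, since 1 cell held 80.4% of the class's Sparcl1 reads in plate 2, where the median cell was at 2.63 CPM.

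The thrombospondins are secreted glycoproteins that bind CD36, CD47 and integrins. Thbs2 (ENSMUSG00000023885, chr17:14665500-14694235, minus strand), whose product inhibits blood vessel growth, was 34 and 18.6 CPM in mSC-like cells and 249.5 and 109.1 CPM in the nm(R)SC-like class. It fell by 2.65 ± 0.50 (log2) in mSC-like cells (adjusted p = 0.0175). The plates differed in how many nm(R)SC-like cells carried it: 49.1% of 116 thinned cells (39.7 to 58.6) in plate 1 but 8.82% of 238 (5.54 to 13.2) in plate 2, where the single highest cell held 43.5% of the reads. In the cells at or below the median of the summed fibroblast and perineurial lists of their class, Thbs2 in plate 1 was 166 CPM in the nm(R)SC-like and 5.58 CPM in the mSC-like class, but in plate 2 it was 27.5 and 34.1 CPM, the opposite order. Whether cells with more of these genes account for the difference was not tested.

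Thbs1 (ENSMUSG00000040152, chr2:118111876-118127133, plus strand), which encodes an activator of latent TGF-beta, had 4 reads in 3 cells of the whole table. Thbs4 (ENSMUSG00000021702, chr13:92751590-92794818, minus strand) had 15 reads in 2 cells, 14 of them in a single Mfap5-high cell of plate 1. No thinned cell of either class reached 5 reads of either gene, which allows a share of up to 2.8% (plate 1) and 4% (plate 2) of mSC-like cells and 2.59% and 1.26% of nm(R)SC-like cells. Neither gene passed the filter on low counts, so neither was tested.

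Postn (ENSMUSG00000027750, chr3:54361109-54391037, plus strand) encodes periostin, an integrin ligand that also takes part in collagen assembly. It was 8.79 and 2.08 CPM in mSC-like cells and 212.3 and 66.7 CPM in the nm(R)SC-like class. Postn fell by 4.73 ± 0.64 (log2) in mSC-like cells (edgeR adjusted p = 0.0029). The share of thinned nm(R)SC-like cells with 5 or more reads was 32.8% (24.3 to 42.1) in plate 1 and 7.56% (4.54 to 11.7) in plate 2, and that of mSC-like cells was 2.8% (0.582 to 7.98) and 0 of 75 cells, which allows up to 4%. At a limit of 1 read the plate 2 shares were 30.7% of mSC-like and 30.3% of nm(R)SC-like cells, so single reads did not separate the classes there. In the cells with lower summed fibroblast and perineurial lists, defined as for Thbs2, Postn in plate 1 was 84 CPM for nm(R)SC-like against 5.9 CPM for mSC-like cells, but in plate 2 it was 6.73 against 1.84 CPM. The call was also lost without integration of the plates (adjusted p = 0.132). The part of those genes in the difference was not tested.

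Tnc (ENSMUSG00000028364, chr4:63959785-64047015, minus strand) encodes tenascin-C, a hexameric protein of developing and injured tissue that modulates adhesion. It was 3.68 and 0.498 CPM in mSC-like cells and 30.4 and 13.1 CPM in the nm(R)SC-like class. The log2 ratio was -3.81 ± 1.58 and did not pass the test (adjusted p = 0.338). Reads were found in 79 of 768 cells, and 1 cell held 54.2% of the nm(R)SC-like reads in plate 1 and 72.4% in plate 2.

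Serpine2 (ENSMUSG00000026249, chr1:79794197-79861180, minus strand) encodes protease nexin-1, an inhibitor of thrombin, urokinase and tissue plasminogen activator. It had the opposite sign to the others, with 717 and 1111 CPM in mSC-like cells and 362 and 353 CPM in the nm(R)SC-like class. The log2 ratio of 1.38 ± 0.43 missed the limit (edgeR adjusted p = 0.141). Serpine2 was not low throughout the nm(R)SC-like class. Its mean over plates was 1284 CPM (SD 448) in the nm(R)SC-like cluster led by cell-cycle genes. The other nm(R)SC-like clusters were at 387 and 104 CPM, and the mSC-like clusters at 1153 and 466 CPM. In thinned cells, 78.5% of mSC-like cells in plate 1 (69.5 to 85.9) and 62.7% in plate 2 (50.7 to 73.6) had 5 or more reads, against 39.7% (30.7 to 49.2) and 16.8% (12.3 to 22.2) of nm(R)SC-like cells.

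In this comparison of classes, 3 of the 6 genes tested passed (Sparcl1, Thbs2, Postn), all lower in mSC-like cells, where 2.65% of the 13331 genes tested passed in either direction and 1.3% were lower. DESeq2 called Tnc and Serpine2 in addition, with 11.8% of genes called. The median log2 ratio of the 6 genes was -3.23, against -0.06 over all genes tested. Without the plate block, Sparcl1 alone of these passed. The genes were chosen with earlier results of these data known. The shares and medians given here therefore describe the list and do not test it. Most other genes were also summed in classes built from a random part of the genes. Those classes named 92.7% and 88.6% of cells as the classes used for the members did. The names of the classes rest on markers left out of the tests, and the cells called mSC-like had a higher summed level of dissociation response genes than nm(R)SC-like cells in plate 2 (29856 against 16692 CPM), but not in plate 1 (11106 against 13258 CPM). Among the 16 dissociation response genes, 1 (Hspa1a) passed as lower in mSC-like cells and none as higher, where 1.3% of all genes were lower. The part of dissociation in the differences between classes was not tested.

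**Figure D2:**
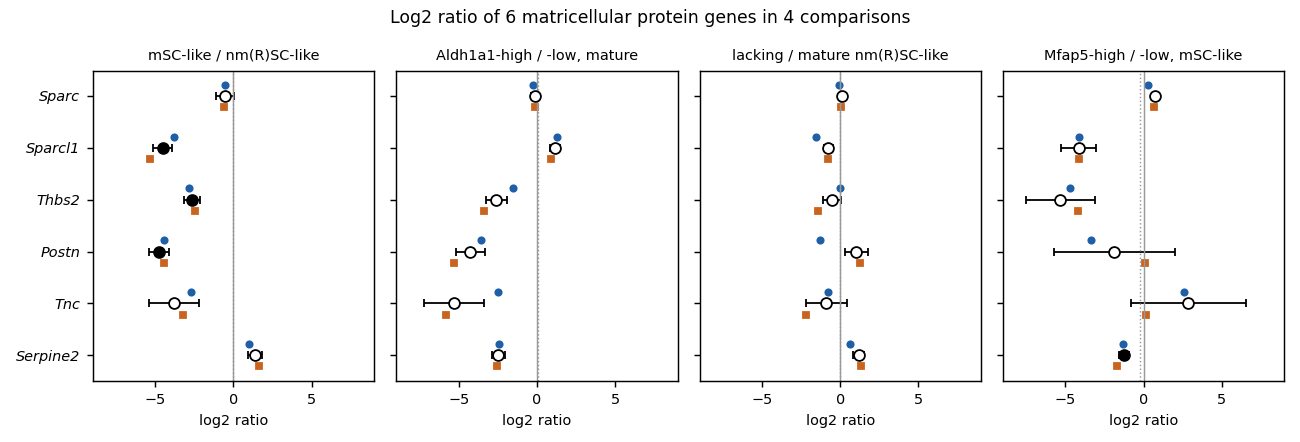
Log2 ratio of 6 genes (rows) in 4 comparisons (panels), with the edgeR estimate and its SE as a large circle and the ratio of CPM plus 1 in each plate as small marks (circle plate 1, square plate 2). A solid line is at 0 and a dotted line at the median of all genes. Filled circles passed at an adjusted p of 0.05, which were Sparcl1, Thbs2 and Postn between classes and Serpine2 within mSC-like cells.

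Within mature nm(R)SC-like cells, the values of Serpine2, Postn, Thbs2 and Tnc were lower and that of Sparcl1 was higher in Aldh1a1-high than in Aldh1a1-low cells of both plates, but no gene passed among all 12652 tested (0% called by edgeR, 406 genes at an unadjusted p under 0.05, and 270 genes, 2.27%, called by DESeq2, among them Thbs2, Postn, Tnc and Serpine2). Aldh1a1 encodes a retinaldehyde dehydrogenase. Sparcl1 was 1970 and 2729 CPM in Aldh1a1-high cells and 813 and 1455 CPM in Aldh1a1-low cells. It was higher in the Aldh1a1-high cells of both plates, with a log2 ratio of 1.14 ± 0.33 (adjusted p = 1).

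Serpine2 ran the other way, at 127.3 and 94.5 CPM in Aldh1a1-high cells and 700.9 and 555.9 CPM in Aldh1a1-low cells. Its log2 ratio was -2.47 ± 0.42 (adjusted p = 1). Postn was 48.6 and 2.78 CPM in Aldh1a1-high cells and 579.2 and 145.9 CPM in Aldh1a1-low cells. The periostin values differed by a log2 ratio of -4.25 ± 0.90 (adjusted p = 1), and in plate 2 a single Aldh1a1-low cell held 71.1% of the subset's Postn reads.

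Thbs2 was 149.3 and 38.9 CPM in Aldh1a1-high cells against 434.2 and 408.4 CPM in Aldh1a1-low cells (log2 ratio -2.60 ± 0.66). Tnc was 11.9 and 0.223 CPM against 71.3 and 66.5 CPM (log2 ratio -5.28 ± 1.93). For both the adjusted p was 1, and 1 cell held 66.3% of the Thbs2 reads of Aldh1a1-low cells in plate 2, and 78.9% and 81.2% of their Tnc reads in plates 1 and 2. Sparc did not follow, at 14858 and 10869 CPM against 17856 and 11572 CPM (log2 ratio -0.14 ± 0.23, adjusted p = 1).

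Aldh1a1-low cells also carried more of the cell-cycle genes Mki67 and Top2a than Aldh1a1-high cells, summed to 623 against 140.8 CPM in plate 1 and 5.89 against 2.94 CPM in plate 2. Of the nm(R)SC-like clusters, the one led by cell-cycle genes held 7 and 2 Aldh1a1-high, 8 and 13 Aldh1a1-low and 6 and 18 lacking cells in the 2 plates. Mki67 and Top2a summed to 1761 CPM in that cluster in plate 1 but to 13.8 CPM in plate 2. There 11 of its 33 cells had 20000 reads or fewer, and its name does not mark those cells as cycling. Without that cluster the log2 ratios of Serpine2 and Postn were -3.12 and -4.30, and none of the members was called. Summed fibroblast genes were 3227 CPM in Aldh1a1-low and 1801 CPM in Aldh1a1-high cells of plate 1, and 949.1 and 716.7 CPM in plate 2. In the cells of each subset with lower summed fibroblast and perineurial lists, the plate 2 values lay closer together. Thbs2 there was 36.5 CPM in Aldh1a1-high and 14.6 CPM in Aldh1a1-low cells, the opposite order, Postn was 1.68 and 3.97 CPM, Tnc 0.192 and 0.558 CPM, and Serpine2 164.5 and 240.4 CPM. In plate 1 those cells kept the order of the whole subsets, with Postn at 27.7 and 648.7 CPM and Serpine2 at 114.1 and 507.5 CPM. The cut was the median of each subset, in plate 1 1781 CPM for Aldh1a1-high and 2970 CPM for Aldh1a1-low cells. The cells compared were therefore not matched in these genes. The part of cell-cycle and fibroblast genes in the differences was not tested.

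**Figure D3:**
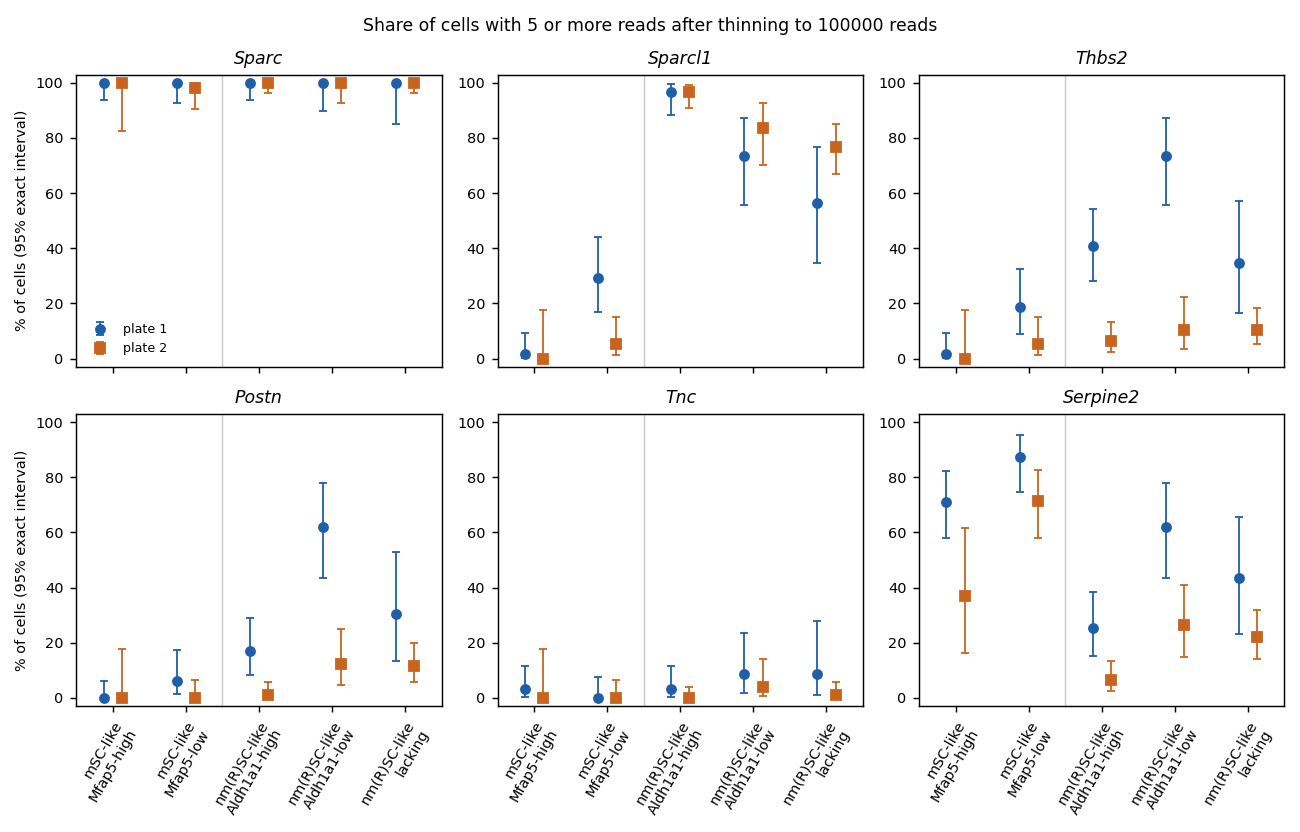
Share of cells (percent, vertical axis) with 5 or more reads of each gene after each cell was thinned to 100000 reads, by subset (horizontal axis) and plate, with 95% exact binomial intervals that cover counting of cells. Sparcl1 was found in 96.6% and 96.8% of Aldh1a1-high cells, while Thbs2 and Postn were found in more cells of plate 1 than of plate 2 in the 3 nm(R)SC-like subsets.

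Shares of cells give the same subsets without the weight of single high cells. Sparcl1 was found in 96.6% (88.3 to 99.6) and 96.8% (91 to 99.3) of Aldh1a1-high cells, in 73.5% (55.6 to 87.1) and 83.7% (70.3 to 92.7) of Aldh1a1-low cells, and in 56.5% (34.5 to 76.8) and 76.8% (67.1 to 84.9) of cells lacking mature Remak genes. Serpine2 was found in 25.4% (15 to 38.4) and 6.38% (2.38 to 13.4) of Aldh1a1-high cells, and in 61.8% (43.6 to 77.8) and 26.5% (14.9 to 41.1) of Aldh1a1-low cells. Postn was found in 16.9% (8.44 to 29) and 1.06% (0.0269 to 5.79) of Aldh1a1-high cells and in 61.8% (43.6 to 77.8) and 12.2% (4.63 to 24.8) of Aldh1a1-low cells. Depth differed between the subsets before thinning, with 26 Aldh1a1-high cells of plate 1 at 20000 reads or fewer.

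Across single nm(R)SC-like cells the levels moved in the same way, as a description. Spearman's rho of Sparcl1 with Aldh1a1 was 0.6 over 116 cells of plate 1 and 0.29 over 238 cells of plate 2. Serpine2 with Aldh1a1 gave -0.42 and -0.23, and Postn with Aldh1a1 gave -0.41 and -0.21. Postn and Serpine2 gave 0.44 and 0.26, with 27 and 14 cells at 5 or more reads of both. The cells of a plate share animals, sort and library preparation, and many of these values were 0.

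Cells below the gate of 3 Remak markers were compared with all mature cells. No gene of the 12652 tested passed (0% called by edgeR, 672 at an unadjusted p under 0.05, 474 genes, 4.06%, and 0 members by DESeq2). Serpine2 was 504.2 and 559.3 CPM in lacking cells and 331.5 and 225.4 CPM in mature cells (log2 ratio 1.17 ± 0.33, adjusted p = 0.645). Sparcl1 was 521.1 and 1377 CPM against 1558 and 2367 CPM (log2 ratio -0.76 ± 0.29, adjusted p = 0.851).

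Postn went in opposite directions in the 2 plates, from 237.5 CPM in mature to 94.8 CPM in lacking cells of plate 1 and from 43.4 to 104.4 CPM in plate 2 (log2 ratio 1.02 ± 0.72, adjusted p = 0.939). Thbs2 was 244 and 53.1 CPM in lacking and 250.7 and 143.7 CPM in mature cells (adjusted p = 0.965). Tnc was 18.4 and 3.44 CPM against 33 and 19 CPM (adjusted p = 0.987). Sparc was 14821 and 11673 CPM against 15925 and 11069 CPM (adjusted p = 0.991). The sign was opposite under 4 (Sparc), 2 (Thbs2), 2 (Postn) and 3 (Tnc) of 16 alternatives. Lacking cells of plate 1 held more of the myelinating marker Prx than mature cells of that plate. The part of myelin transcripts in the differences from mature cells was not tested.

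Within mSC-like cells, Serpine2 fell in Mfap5-high cells. Its levels were 434.5 and 414.8 CPM in Mfap5-high and 1099 and 1345 CPM in Mfap5-low cells, and the plates were close within each group. The fall was 1.28 ± 0.31 on the log2 scale (adjusted p = 0.0425), and Serpine2 was the 1 member of 6 tested that passed, where 1.8% of 11447 genes passed in either direction and 0.542% were lower. DESeq2 called Serpine2, Sparcl1 and Thbs2, with 9.02% of genes called. The edgeR call was lost under 6 alternatives, with an adjusted p of up to 0.742 without the plate block. In the thinned cells 71.2% (57.9 to 82.2) and 36.8% (16.3 to 61.6) of Mfap5-high cells had 5 or more reads, against 87.5% (74.8 to 95.3) and 71.4% (57.8 to 82.7) of Mfap5-low cells.

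Sparcl1 had a larger ratio with a larger error. It was 11.1 and 2.76 CPM in Mfap5-high and 213.8 and 64.1 CPM in Mfap5-low cells (log2 ratio -4.16 ± 1.10, adjusted p = 0.0673). Thbs2 was 1.96 and 0.425 CPM against 77.3 and 24.7 CPM (log2 ratio -5.33 ± 2.23, adjusted p = 0.456). Both were lower in the Mfap5-high cells of each plate, and in plate 2 a single Mfap5-low cell held 81.5% of the subset's Sparcl1 reads and 61.6% of its Thbs2 reads came from 1 cell.

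Sparc was 11502 and 10135 CPM in Mfap5-high and 9335 and 6321 CPM in Mfap5-low cells (log2 ratio 0.73 ± 0.20, adjusted p = 0.091). Spearman's rho of Sparc with Mfap5 over single mSC-like cells was 0.24 (107 cells) and 0.45 (75 cells). Postn (0.952 and 2.2 CPM against 19.4 and 2.04 CPM) and Tnc (6.24 and 0.638 CPM against 0.215 and 0.451 CPM) rested on few reads, and neither passed. The plates gave Postn different signs.

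Mfap5-high cells had lower summed levels of dissociation response genes than Mfap5-low cells in both plates, at 6646 against 17139 CPM and 14638 against 34955 CPM. Of the 16 genes on that list, 5 fell in Mfap5-high cells (Fos, Jun, Ier2, Btg2, Klf6) and none rose. Over all 11447 genes tested, 0.542% were lower. The part of the dissociation response in the Serpine2 difference was not tested.

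The lists of relatives, proteases, receptors and TGF-beta genes below were also chosen with earlier results of these data known. Their shares against all genes are a description. Relatives of the members outside the list of 8 include other thrombospondins, tenascins, SPARC-type proteins, CCN proteins, osteopontin, fibulins and galectins. Of 25, 17 were tested between classes, 1 rose and 1 fell in mSC-like cells (1.35% and 1.3% of all genes), and their median log2 ratio was 0.10. Spp1, which encodes osteopontin, was 2677 and 1674 CPM in mSC-like and 14.3 and 7.41 CPM in the nm(R)SC-like class, a rise of 7.75 ± 0.58 (adjusted p = 0.00014). Lgals3, which encodes galectin-3, was 3.59 and 7.65 CPM in mSC-like and 580.9 and 863 CPM among nm(R)SC-like cells, and fell by 7.02 ± 0.53 (adjusted p = 0.00014). Ccn1 and Lgals1, which were also abundant in both classes, did not pass (log2 ratios 0.10 and -0.81).

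Within mSC-like cells, 3 of the 10 relatives tested rose in Mfap5-high cells and none fell, where 1.26% of all genes tested rose. Spp1 was 4646 and 6670 CPM in Mfap5-high against 13.9 and 0.0713 CPM in Mfap5-low cells (log2 ratio 11.93 ± 1.40, adjusted p = 7.5e-05). The matricellular Ccn4 (WISP1) was 148.5 and 167.2 CPM against 7.94 and 0.404 CPM (6.63 ± 1.25, adjusted p = 0.00571). Fbln5, which encodes fibulin-5 of elastic fibres, was 237.9 and 609.7 CPM against 68.5 and 1.61 CPM (5.37 ± 1.33, adjusted p = 0.0443). None of the 14 relatives tested passed in either comparison within nm(R)SC-like cells.

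The proteases around Serpine2 and the tenascins were tested in the same way. Of 13 genes, 9 were tested between classes and 3 fell in mSC-like cells, where 1.3% of all genes fell, with a median log2 ratio of -3.05 against -0.06 over all genes. Plat encodes tissue plasminogen activator, a protease that protease nexin-1 inhibits, and was 13.2 and 18.9 CPM in mSC-like and 196.1 and 694.4 CPM in the nm(R)SC-like class (a fall of 4.48 ± 0.56, adjusted p = 0.00181). Its inhibitor Serpine2 was higher in the mSC-like cells of each plate, without passing. Htra1, a secreted serine protease, was 4.29 and 0.0356 CPM against 161.6 and 205.8 CPM (a fall of 7.98 ± 1.56, adjusted p = 0.0213). Mmp14, a membrane-bound metalloproteinase, was 30.7 and 15 CPM against 141.3 and 153.9 CPM (a fall of 2.72 ± 0.58, adjusted p = 0.0315). Adamts5, the most abundant protease in mSC-like cells, was 160.6 and 76.9 CPM against 176.3 and 129.4 CPM and did not pass. None of the proteases passed within either class.

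Of 30 receptors and binding partners, 23 were tested between classes and none passed, with a median log2 ratio of -0.97 and 6 positive ratios. Sdc4, which encodes the heparan sulphate carrier syndecan-4, was the most abundant of them at 716.2 and 1610 CPM in mSC-like and 1878 and 3592 CPM in the nm(R)SC-like class (log2 ratio -1.21 ± 0.47, adjusted p = 0.286). Itga6 was 722.4 and 362.9 CPM against 726.7 and 341.5 CPM (log2 ratio 0.10 ± 0.41). Cd47, a thrombospondin receptor, was 374.6 and 383 CPM against 311.7 and 383.5 CPM (0.19 ± 0.42). Within mSC-like cells, 2 of 23 rose in Mfap5-high cells, where 1.26% of all genes rose. Itgb5, an integrin subunit that binds periostin, was 47.5 and 280.4 CPM against 7.01 and 10.1 CPM (4.02 ± 0.82, adjusted p = 0.0114), and Lrp1, an endocytic receptor for thrombospondins and serpin complexes, was 132.1 and 195 CPM against 7.01 and 24.2 CPM (3.86 ± 0.78, adjusted p = 0.0101).

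Of 6 TGF-beta ligands and receptors, 5 were tested and none passed in any of the 4 comparisons. Tgfbr3, the betaglycan co-receptor, was 145.4 and 91.7 CPM in mSC-like and 366.7 and 238.1 CPM in the nm(R)SC-like class (log2 ratio -1.29 ± 0.43, adjusted p = 0.182). Tgfbr2 was 95.8 and 36.5 CPM against 40.3 and 35.8 CPM, and Tgfbr1 was 18.6 and 10.8 CPM against 25.3 and 1.86 CPM.

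**Figure D4:**
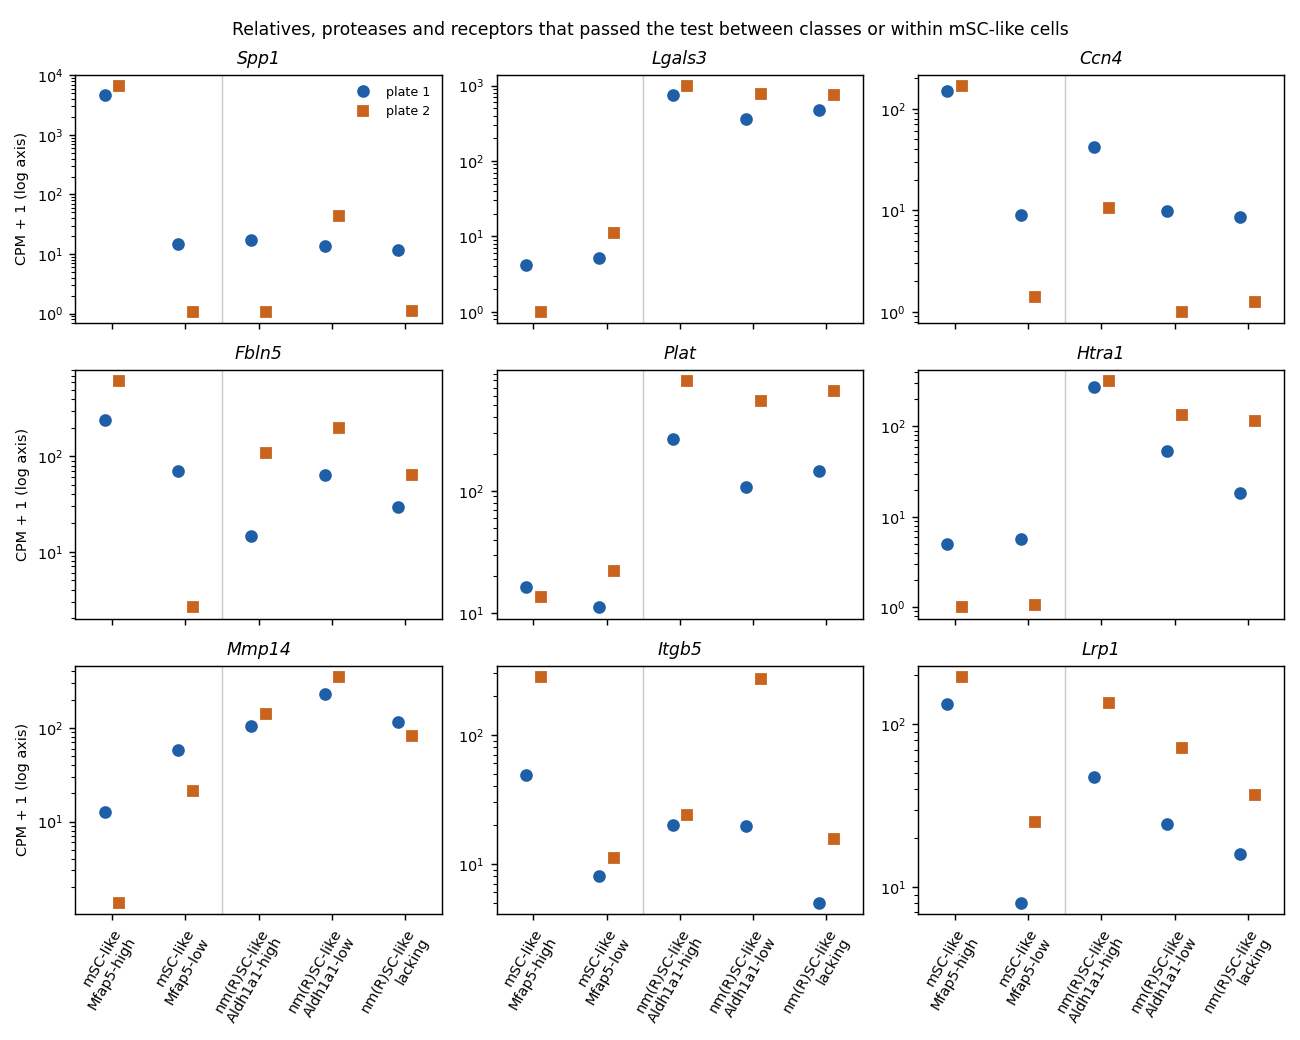
Summed CPM plus 1 (log axis) of relatives (Spp1, Lgals3, Ccn4, Fbln5), proteases (Plat, Htra1, Mmp14) and receptors (Itgb5, Lrp1) that passed a test, in 5 subsets (horizontal axis), with a circle for plate 1 and a square for plate 2. Spp1 was at 4646 and 6670 CPM in Mfap5-high cells and low in the other subsets, while Lgals3, Plat and Htra1 were highest in nm(R)SC-like subsets.

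The genes whose levels ran closest to each member were found over the 10 sums of 5 subsets and 2 plates, among 11899 genes. For Sparcl1 they were Wnt6, Emp3 and Fbxo7 (Pearson's r 0.995, 0.993 and 0.991), and for Thbs2 they were Pde8a, Vdac3 and Ppil1 (0.98, 0.978 and 0.978). For Postn they were Nkd2, Wfdc18 and the collagen gene Col6a1 (0.955, 0.951 and 0.944). For Tnc they were Cenpe and Cenpa, which encode centromere proteins, and Zfp217 (0.962, 0.935 and 0.921). For Sparc they were Plod3, a lysyl hydroxylase of collagen, Cenpq and Tbl1x (0.951, 0.933 and 0.923), and for Serpine2 they were 2010111I01Rik, Stox2 and Wdyhv1 (0.952, 0.93 and 0.928). Plod3, Cenpq and 2010111I01Rik overlap a gene on the other strand and their counts are uncertain. The sums share plates and libraries, and the likeness is a description.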

How the data were processed

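Libraries of single P60 Schwann cells were prepared by the study with a miniaturised Smart-Seq2 protocol and sequenced without molecular identifiers. The authors deposited 1 table of raw counts per gene and cell. The submitters' processing notes name bcl2fastq, STAR 2.6.1c, featureCounts and GRCm38.p5, while the study's methods name another STAR version and a human build. Whether strand was used in counting, and how multimapped reads were handled, is not given in the sources used here. Of 25700 identifiers, 25664 were found in GENCODE M21.

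Cells below 1500 detected genes were removed. Counts of the rest were scaled to 100000 and the plates integrated by canonical correlation analysis in Seurat 5.3.0 under R 4.3.3 (12 dimensions, resolution 0.5). Classes are rebuilt and can differ from the study's. The 8 genes and all lists were left out of the clustering in which they were tested, and the naming markers were not tested. For the comparison between classes, the other genes were split at random into 2 sets, each tested in classes built from the other set. The comparisons within a class had no such split, so there the other genes were tested in classes they helped to build. The clusters were built from genes of the same cells, and classes from the 2 sets had the same name for 92.7% of 674 and 88.6% of 669 cells. Wells were filled by single-cell sorting and doublets were not called. One cluster of 54 cells was led by cell-cycle genes, though its summed Mki67 and Top2a were 1761 CPM in plate 1 and 13.8 CPM in plate 2. Its median read count was 280112 in plate 1, above that of all kept cells, and 114250 in plate 2, below it. It was classed by its higher mean score for the nm(R)SC markers (0.136, against -0.547 for the mSC markers), of which 5 reached 50 CPM.

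Counts were summed per plate and class or subset and tested with edgeR 4.0.16 (TMM, filterByExpr with a minimum count of 10, quasi-likelihood, plate as a block, Benjamini-Hochberg over all genes tested, limit 0.05). The cells of a plate come from the same animals, which is why the plate is a block. The fits hold 4 or 6 sums and 1 or 2 residual degrees of freedom, so p-values rest on the spread shared across genes. SEs were taken as the log2 ratio divided by the square root of F. The steps were also run on simulated counts. These held no difference between plates, and their changes were larger than the Serpine2 ratio within mSC-like cells. The run therefore does not measure how reliable the calls are in these plates. DESeq2 1.42.0 was an alternative.

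CPM are counts over all reads of the summed cells. Shares were taken after thinning to 100000 reads, and cells with fewer were left out. Intervals are 95% exact binomial (Clopper-Pearson), shares of 0 allow 3 cells, and both cover counting error only. Promoter windows and their build are from RefSeq, where 6 of the 8 genes have a window. In plate 1, reads of 7 genes nearly confined to 1 library appeared in libraries that share its first or second index at 0.0352% and 0.0437% of the source, and at 0.0113% in others. The members and the gene lists were chosen with earlier results of these data known. The rule for named genes took all 8, of which Thbs1 and Thbs4 had too few reads to enter any test. Of each other list, the genes that passed (at most 6 by size) and the 3 of highest level were named. One gene of the Schwann cell list is not reported here.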

Additional observations from a re-analysis of the deposited data

Results flagged for a closer look

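The 94 cells left out for their low number of detected genes entered no comparison, but their pooled 1139522 reads held 6 of the 8 genes above the 2.63 CPM that a floor of 3 reads allows. Sparc was at 12919 CPM, Sparcl1 at 370 CPM, Serpine2 at 235 CPM, Postn at 57.9 CPM, Thbs2 at 22.8 CPM and Tnc at 10.5 CPM. Most of the pooled reads (1034231) were from plate 2, and in plates 1 and 2 Sparc was at 11131 and 13102 CPM, Sparcl1 at 541.4 and 352.9 CPM, Serpine2 at 465.4 and 211.8 CPM, Postn at 76 and 56.1 CPM, Thbs2 at 95 and 15.5 CPM and Tnc at 19 and 9.67 CPM. In plate 1 these were 49 reads or fewer for Serpine2, Thbs2, Postn and Tnc, and 3 reads there stand for 28.5 CPM, above the Tnc value. The labels put no cell of these plates in a kind of Schwann cell, and these cells were given none here.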

How the results depend on the processing

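Among the 8 genes, no call changed direction under any alternative run. Between mSC-like and nm(R)SC-like cells, 5 members were called by DESeq2 and 1 with no replicate block, against 3, and all genes called were 1508 with DESeq2, 626 without a filter on low counts, 64 with no replicate block (39.1% higher, against 51%) and 83 with classes from all genes (38.6% higher). Sparcl1 passed under every alternative with a test (adjusted p up to 0.0443), but Thbs2 and Postn did not pass without the plate as a block (0.119 and 0.0725) or without plate integration (0.0732 and 0.132), nor Thbs2 with classes from all genes (0.0514). Serpine2 passed with DESeq2 (0.0122) and without integration (0.0219). Within mature cells DESeq2 called 4 members and 270 genes for Aldh1a1, and for cells lacking mature Remak genes it called 474 genes and 9 were called without a filter. Within mSC-like cells, members called were 3 with DESeq2 or without a filter, 2 without integration or with exchanged reads subtracted, and 0 with RLE factors, no replicate block, a filter of 2500 genes, or an Mfap5 gate at 10 or 200 CPM. All genes called there were 892 with DESeq2, 130 with RLE (80.8% higher, against 69.9%), 324 without a filter, 12 with no replicate block, 410 after thinning (59.3%) and 63 with the gate at 10 CPM (88.9%). Serpine2 did not pass there with RLE (0.162), without the block (0.742), with 1000 or 2500 genes (0.137, 0.348) or with either gate (0.202, 0.0635). The causes were not tested. Leaving out a plate leaves no residual degrees of freedom, so it gives a ratio with no test: -5.32 and -3.81 for Sparcl1, -2.84 and -2.49 for Thbs2 and -4.46 and -4.45 for Postn between classes, and -1.70 and -1.34 for Serpine2 within mSC-like cells. Leaving out the cell-cycle cluster or cells of up to 20000 reads, both chosen after the data were seen, gave 3 members each between classes (247 and 370 genes). Single cells limit Tnc, and 79 cells held any of its reads.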
